A study of Mus musculus with 8 samples.

Results

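The glucocorticoid receptor, its sister the mineralocorticoid receptor, the pair of enzymes that switch corticosterone on and off inside cells, and 4 widely used glucocorticoid-responsive genes were followed in uterine stromal cells of mice. The 8 genes were chosen by name, with earlier results of these data known. They were the receptors Nr3c1 and Nr3c2, the enzymes Hsd11b1 and Hsd11b2, and the responsive genes Tsc22d3, Sgk1, Fkbp5 and Klf9. All 8 were found among the 23420 genes counted, and all 8 passed the filter on low counts that left 14598 genes for testing. The libraries came from uterine stromal cells labelled day 3, 4 from mice labelled Erbb3f/f and 4 from mice labelled Erbb3d/d. By the usual convention for mice, f/f stands for 2 loxP-flanked (floxed) copies of the gene and d/d for 2 copies deleted by Cre recombinase. No Cre line, age or starting event for day 3 is given in the labels. They do not say whether each library is a separate animal either, so p-values measure the spread between these libraries.

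Corticosterone, the main glucocorticoid of mice, crosses the cell membrane and binds the glucocorticoid receptor, which waits in the cytoplasm in a complex with HSP90 chaperones and then moves to the nucleus and binds DNA. The mineralocorticoid receptor binds corticosterone as well, so cells control access to both receptors with enzymes: the product of Hsd11b2 oxidises corticosterone to an inactive form, and the product of Hsd11b1 mainly regenerates the active one. Tsc22d3 encodes the glucocorticoid-induced leucine zipper protein, Sgk1 a serum- and glucocorticoid-regulated kinase, Fkbp5 a co-chaperone that lowers the receptor's affinity for hormone, and Klf9 a zinc finger transcription factor. The progesterone receptor recognises the same DNA palindrome, and several of these genes also respond to progesterone in the uterus.

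The DNA next to the start sites is shown first, because that palindrome is the element through which the receptor is known to act on responsive genes. The palindrome was searched as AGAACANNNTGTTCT, which reads the same on both strands, in the 250 bases before each annotated start (RefSeq, GRCm38.p6). Only 3 of 32851 such windows of the genome hold it, 0.00913%. The table gave 13 start sites for 6 of the 8 genes, and 1 of them, at Sgk1, holds the palindrome. A single arm of it, AGAACA on either strand, which also lies in each full palindrome, occurs in 16.1% of all windows and in 4 of the 13. The Sgk1 window with the palindrome and the Tsc22d3 window with a single arm follow, 5′ to 3′ on the strand of the gene, with each palindrome or arm in capitals.
Sgk1, chr10:21993640-21993889, plus strand: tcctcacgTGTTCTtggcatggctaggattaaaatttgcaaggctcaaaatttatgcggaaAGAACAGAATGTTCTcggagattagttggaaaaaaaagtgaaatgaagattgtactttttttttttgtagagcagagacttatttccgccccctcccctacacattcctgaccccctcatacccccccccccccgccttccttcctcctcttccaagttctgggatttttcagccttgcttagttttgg
Tsc22d3, chrX:140600523-140600772, minus strand: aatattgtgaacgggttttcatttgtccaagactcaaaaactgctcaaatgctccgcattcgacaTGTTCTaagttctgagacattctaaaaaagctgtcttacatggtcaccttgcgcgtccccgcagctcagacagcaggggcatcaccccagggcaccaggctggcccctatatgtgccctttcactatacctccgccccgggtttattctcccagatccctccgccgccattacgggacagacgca
In the Sgk1 window the palindrome begins 189 bases before the start and a separate arm begins 242 bases before it. In the Tsc22d3 window the arm begins 185 bases before the start. Other Sgk1 windows, not printed here, hold a single arm that begins 195 or 13 bases before their start. No start site searched for Nr3c2, Fkbp5, Klf9 or Hsd11b1 holds either pattern in these 250 bases. The counts are per gene and do not separate the 6 start sites of Sgk1 or the 3 of Tsc22d3. A match is a description of the letters and not evidence that a receptor binds there.

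Depth and label checks concern all libraries. Reads in genes numbered 8578575 to 12854367 per library. Values are CPM, read counts brought to a common library size after TMM scaling (trimmed mean of M values). Erbb3 itself had its higher mean under the d/d label, with overlapping groups (9.64 ± 2.24 CPM under the f/f label against 13.9 ± 4.56 CPM under d/d; SD, n = 4 per label), and each direction below is that of the labels only. Gene-level counts cannot show whether single exons were lost. Stromal markers were all present: the 12 stromal markers summed to 12931 to 16808 CPM in Erbb3f/f and 11262 to 15566 CPM in Erbb3d/d, with 4 of 12 higher on average in Erbb3d/d, and none of them was at 0. Of these 12, 0 were higher and 4 lower at an unadjusted p under 0.05, and Pdgfra and Vim were lower without overlap and were called by DESeq2. Over all genes tested, 6.64% were higher and 4.97% lower at that p. Groups did not overlap in 2.56% with Erbb3d/d higher and in 2.48% with Erbb3d/d lower. DESeq2 called 1.78% of the genes it tested. Markers of other cells were present as well. The 15 epithelial markers summed to 1038 to 1670 CPM in Erbb3f/f and 1546 to 2530 CPM in Erbb3d/d, with 12 of 15 higher on average in Erbb3d/d. At an unadjusted p under 0.05, 11 of the 15 were higher and 0 lower. Krt19, Cldn4 and Cldn7 were higher without overlap, and DESeq2 called these and Epcam. The 12 smooth muscle markers summed to 1833 to 3057 CPM and 2927 to 6108 CPM, with 10 of 12 higher. At an unadjusted p under 0.05, 9 of them were higher and 1 lower. Myh11, Cnn1 and Mylk were higher without overlap, and DESeq2 called Cnn1, Actg2 and Mylk. The 12 immediate early and heat shock genes that follow tissue handling summed to 4260 to 8251 CPM and 6296 to 12255 CPM, with 10 of 12 higher. At an unadjusted p under 0.05, 2 handling genes were higher and 0 lower, and DESeq2 called Ier3. No epithelial, smooth muscle or handling gene was at 0 in all libraries. The 10 endothelial markers summed to 240 to 510.0 CPM and 248 to 528 CPM, with 9 of 10 higher, and the 9 immune markers found summed to 516 to 994 CPM and 668 to 894 CPM, with 5 of 9 higher, again with no gene at 0 in all libraries. Erbb3d/d replicates 3 and 4 stood apart on the first principal component, which held 36.7% of the variance. Their scores were 38.4 and 48.0, against -32.2 to 11.9 in the other 6 libraries. Erbb3d/d replicate 2, at -19.8, lay within the Erbb3f/f range of -32.2 to -2.89, and Erbb3d/d replicate 1, at 11.9, lay above it. In bulk RNA, fewer cells of a type and less RNA per cell cannot be told apart.

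Among the 8 genes, levels ran from near the bottom to near the top of the genes tested, and the enzyme that inactivates corticosterone had the most abundant transcript. Compared per kb of merged exon in Erbb3f/f, Hsd11b2 had 514 ± 38.4 CPM per kb (SD, n = 4), above 99.8% of the 13695 tested genes with a length. Klf9 had 47.4 ± 1.65 CPM per kb and Tsc22d3 had 41.2 ± 3.44 CPM per kb. Sgk1, at 21.1 ± 6.27 CPM per kb, and Nr3c1, at 21.0 ± 1.90 CPM per kb, could not be put in order because their ranges overlapped. Fkbp5 was lower, at 3.25 ± 0.598 CPM per kb. Hsd11b1, at 0.803 ± 0.184 CPM per kb, and Nr3c2, at 0.607 ± 0.135 CPM per kb, were the lowest and their ranges overlapped. Nr3c2 was above 6.07% of the tested genes. Each other neighbour in this order was separated in all 4 libraries. With the length of the longest transcript in place of merged exons, a setting added after the data were seen, Tsc22d3 (62.2 CPM per kb) came above Klf9 (50.9 CPM per kb), and the rest of the order was kept.

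**Figure D1:**
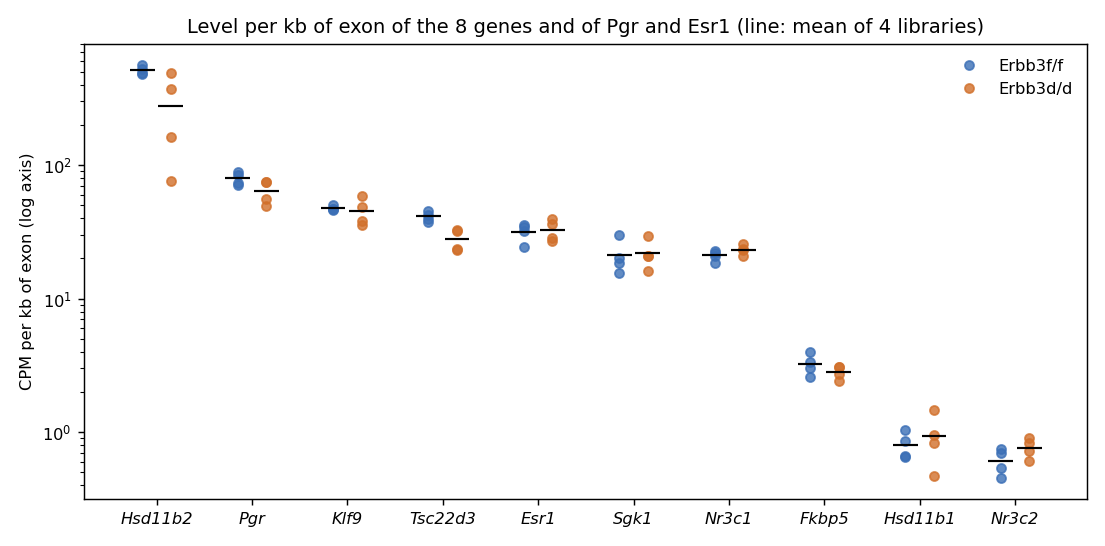
Level per kb of merged exon (CPM per kb, log axis) of the 8 genes and of Pgr and Esr1, the progesterone and oestrogen receptor genes. Each point is 1 library, blue for Erbb3f/f and orange for Erbb3d/d, and each line is the mean of 4 libraries; Hsd11b2 lies highest in both groups and Hsd11b1 and Nr3c2 lowest.

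The glucocorticoid receptor was the more abundant of the receptor pair in every library. Per kb of exon, Nr3c1 exceeded Nr3c2 by a factor of 30.3 to 40.8 in the Erbb3f/f libraries and 28.0 to 38.8 in the Erbb3d/d libraries. The progesterone receptor gene Pgr exceeded Nr3c1 in turn, by a factor of 3.48 to 3.92 in Erbb3f/f and 1.91 to 3.62 in Erbb3d/d. In Erbb3f/f the oestrogen receptor gene Esr1 had 31.6 ± 4.93 CPM per kb (SD, n = 4), with each library above the highest Nr3c1 value.

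Nr3c1, on chromosome 18 at 39410545 to 39519421 (minus strand, GRCm38, GENCODE vM21), had 141, 175, 161 and 169 CPM in Erbb3f/f replicates 1 to 4. Erbb3d/d replicates 1 to 4 had 197, 159.7, 182 and 178 CPM. The groups overlapped, with Erbb3d/d replicate 2 inside the Erbb3f/f range and the other 3 above it. On the log2 scale Erbb3d/d exceeded Erbb3f/f by 0.15 (SE 0.10). This did not pass 0.05 in edgeR's quasi-likelihood test adjusted over all genes (p = 0.581) or in an exact permutation test of log2(CPM + 0.5), two-sided (p = 0.171).

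Nr3c2, on chromosome 8 at 76899442 to 77245012 (plus strand), rested on few reads, 30 to 57 per library in Erbb3f/f and 40 to 61 in Erbb3d/d. It had 2.92, 4.82, 4.48 and 3.51 CPM in Erbb3f/f replicates 1 to 4 and 5.90, 4.67, 3.94 and 5.35 CPM in Erbb3d/d replicates 1 to 4. The groups overlapped, and the log2 fold change of 0.33 (SE 0.27) did not pass the test (edgeR, adjusted p = 0.666; exact permutation test, p = 0.171). Of its exonic bases, 247 are shared with a noncoding gene on the other strand, and the libraries do not keep strand.

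Within Erbb3d/d the enzymes varied more from library to library than the receptors, with coefficients of variation of 68.9% for Hsd11b2 and 44.5% for Hsd11b1 against 8.53% for Nr3c1 and 17.1% for Nr3c2; within Erbb3f/f they did not stand apart (7.46% and 22.97% against 9.04% and 22.2%). Hsd11b2, on chromosome 8 at 105518755 to 105523988 (plus strand, 5 exons), had 961, 907, 1039 and 879 CPM in Erbb3f/f replicates 1 to 4. In Erbb3d/d replicates 1 to 4 it had 688, 899, 296 and 141 CPM, from 6998, 7706, 3758 and 1607 reads. The 4 Erbb3f/f libraries lay close together and the 4 Erbb3d/d libraries did not: replicate 2 was inside the Erbb3f/f range, replicate 1 was below it, and replicates 3 and 4 were far below it. The highest Erbb3d/d library was 6.38 times the lowest, against 1.18 times in Erbb3f/f.

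Hsd11b2 averaged 946.5 ± 70.6 CPM with the f/f label against 506 ± 349 CPM with the d/d label (SD, n = 4 per label). The log2 fold change was -0.90 (SE 0.48). With that spread the difference did not pass the test (edgeR, adjusted p = 0.506; exact permutation test, p = 0.0571). The Erbb3f/f mean was 3.20 times the value of Erbb3d/d replicate 3 and 6.71 times that of replicate 4. Without these 2 libraries the log2 fold change was -0.25 (SE 0.14).

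Hsd11b1, on chromosome 1 at 193221634 to 193264075 (minus strand), was near the lower end of what could be measured, with 17 to 71 reads per library. It had 2.82, 3.67, 2.75 and 4.41 CPM in Erbb3f/f replicates 1 to 4 and 4.03, 1.98, 3.55 and 6.23 CPM in Erbb3d/d replicates 1 to 4. The groups overlapped (log2 fold change 0.22, SE 0.37; edgeR, adjusted p = 0.846; exact permutation test, p = 0.714). Its sign turned without Erbb3d/d replicate 4, to -0.081. Per kb of exon, Hsd11b2 exceeded Hsd11b1 by a factor of 460 to 873 in Erbb3f/f. In Erbb3d/d replicates 1 to 4 that factor was 394, 1047, 193 and 52.3, so the inactivating enzyme's transcript was the more abundant in every library and the factor was below the Erbb3f/f range in 3 of 4.

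**Figure D2:**
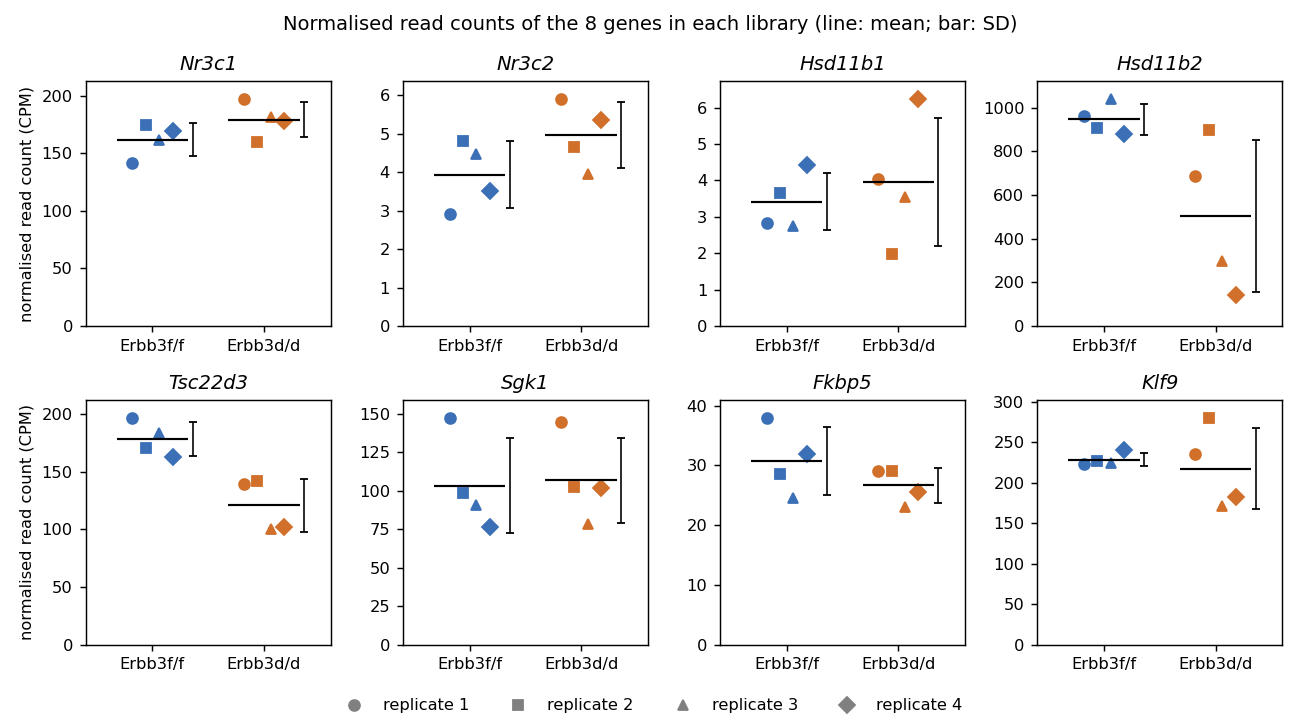
Normalised read count (CPM, linear axis from 0) of each of the 8 genes, with 1 panel per gene and 1 point per library. The symbol gives the replicate number, the line the mean and the bar the SD of 4 libraries; the groups are apart in the panel of Tsc22d3, and the Hsd11b2 values of Erbb3d/d spread from 141 to 899 CPM.

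Of the responsive genes, Tsc22d3 was lower in all 4 libraries labelled Erbb3d/d than in any labelled Erbb3f/f, and the other 3 overlapped. Tsc22d3 lies on chromosome X at 140539528 to 140600659 (minus strand). It had 197, 171, 184 and 163 CPM in Erbb3f/f replicates 1 to 4, and 139.5, 142, 99.99 and 102 CPM in Erbb3d/d replicates 1 to 4. Replicates 3 and 4 of Erbb3d/d were the lowest, and the nearest values across the gap were 163 and 142 CPM.

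Tsc22d3 averaged 179 ± 14.9 CPM with the f/f label against 121 ± 22.9 CPM with the d/d label (SD, n = 4 per label). The log2 fold change was -0.57 (SE 0.13). The gene was not called by edgeR (adjusted p = 0.215), although it ranked 88 of 14598 by p-value. The exact permutation test gave 0.0286, the smallest p that 4 against 4 libraries allow. Both values are for a gene chosen with earlier results of these data known. Groups that do not overlap were found for 1 of the 8 genes, beside 5.04% of all genes tested (2.48% with Erbb3d/d lower). At the adjusted threshold of 0.05, edgeR called 0 of the 8 genes and 0% of all genes. At an unadjusted p under 0.05 it was 1 of the 8, beside 11.6% of all genes. The call depended on the method and on 1 library: Tsc22d3 had an adjusted p of 0.0201 with DESeq2, which called 1.78% of the genes it tested, and of 0.0401 in edgeR without Erbb3d/d replicate 2, where 1.75% were called. Without Erbb3d/d replicates 3 and 4 its log2 fold change was -0.34 (SE 0.11; edgeR, adjusted p = 0.903), and its adjusted p over all 14 alternatives ran from 0.0201 to 0.903.

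Sgk1, on chromosome 10 at 21882184 to 21999903 (plus strand), is the gene with the full palindrome printed above. It had 147, 98.3, 90.7 and 76.7 CPM in Erbb3f/f replicates 1 to 4, and 144, 102, 78.3 and 102 CPM in Erbb3d/d replicates 1 to 4. Replicate 1 was highest in both groups and the ranges nearly coincided. The fitted log2 fold change was 0.05 (SE 0.23; edgeR, adjusted p = 0.956; exact permutation test, p = 0.714). Its sign changed when single libraries were left out, between -0.14 and 0.28, so no direction can be given.

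Fkbp5, on chromosome 17 at 28399094 to 28517527 (minus strand), had 38.0, 28.6, 24.6 and 31.9 CPM in Erbb3f/f replicates 1 to 4 and 29.0, 29.0, 23.01 and 25.6 CPM in Erbb3d/d replicates 1 to 4. The Erbb3d/d values lay in the lower part of the Erbb3f/f range or just below it. The log2 fold change was -0.21 (SE 0.15) and did not pass the test (edgeR, adjusted p = 0.626; exact permutation test, p = 0.286). With 1 library left out it ran from -0.30 to -0.081, the latter without Erbb3f/f replicate 1, and without Erbb3d/d replicates 3 and 4 it was -0.080.

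Klf9, on chromosome 19 at 23141226 to 23168134 (plus strand), was the steadiest of the 8 genes in Erbb3f/f, with 222, 227, 224 and 239.9 CPM in replicates 1 to 4 and a coefficient of variation of 3.49%. In Erbb3d/d replicates 1 to 4 it had 235, 280.3, 171 and 182 CPM, a coefficient of variation of 23.2%. Replicates 3 and 4 were below every Erbb3f/f library and replicate 2 was above every one. The means were 228 ± 7.96 CPM with the f/f label and 217 ± 50.4 CPM with the d/d label (SD, n = 4 per label; log2 fold change -0.07, SE 0.14; edgeR, adjusted p = 0.878; exact permutation test, p = 0.543), and without replicates 3 and 4 the log2 fold change was 0.18 (SE 0.11).

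Hsd11b2, Tsc22d3 and Klf9 thus had their 2 lowest values of the 8 libraries in Erbb3d/d replicates 3 and 4, which holds for 11.1% of all genes tested. This was noticed after the values were seen. The same 2 libraries had the highest summed epithelial markers, 2454 and 2530 CPM against at most 1670 CPM elsewhere, at most 1.81 times the Erbb3f/f mean. Their summed stromal markers were 13726 and 11262 CPM, which is 0.935 and 0.767 of the Erbb3f/f mean, and their mean log2 CPM over the 12 stromal markers was 9.61 and 9.44, against 9.70 or more in each of the other 6 libraries. These ratios stand beside 0.313 and 0.149 for Hsd11b2, 0.559 and 0.571 for Tsc22d3, and 0.750 and 0.799 for Klf9. The part of the cell type markers in these values was not tested. Nr3c1, Nr3c2, Sgk1, Fkbp5 and Hsd11b1 did not have their 2 lowest or 2 highest values in these libraries. Fkbp5 came near to it, with ranks 1 and 3 from the lowest in Erbb3d/d replicates 3 and 4.

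**Figure D3:**
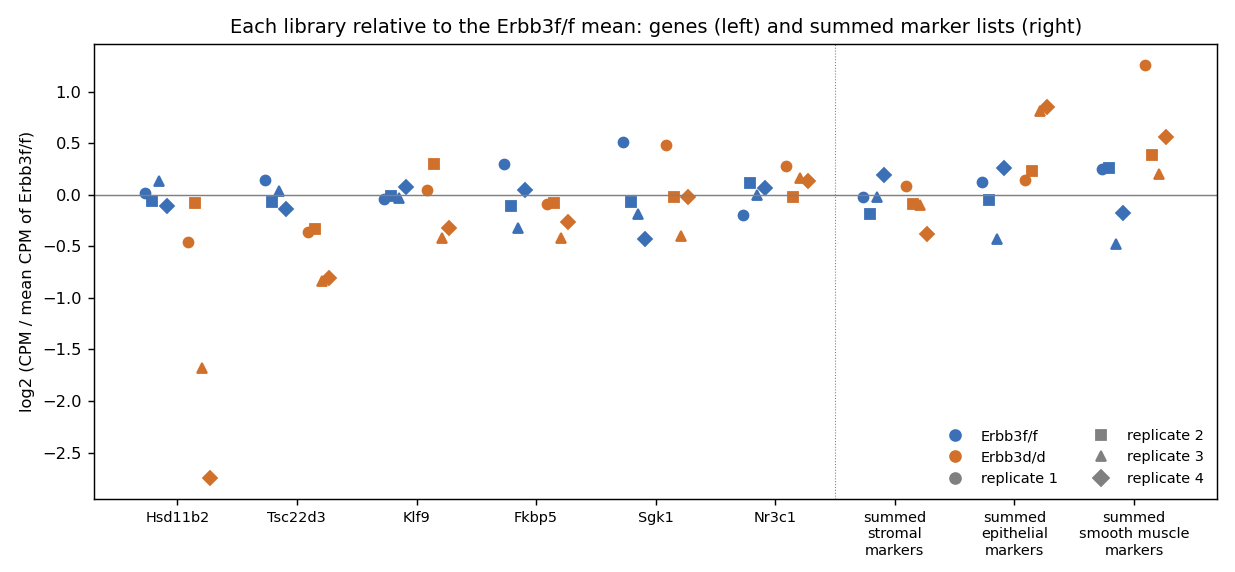
Log2 of each library's CPM over the mean of the 4 Erbb3f/f libraries, for 6 of the genes (left of the dotted line) and for summed marker lists (right). Colour gives the label and symbol the replicate; Erbb3d/d replicates 3 and 4 are lowest for Hsd11b2, Tsc22d3 and Klf9 and highest for summed epithelial markers.

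**Figure D4:**
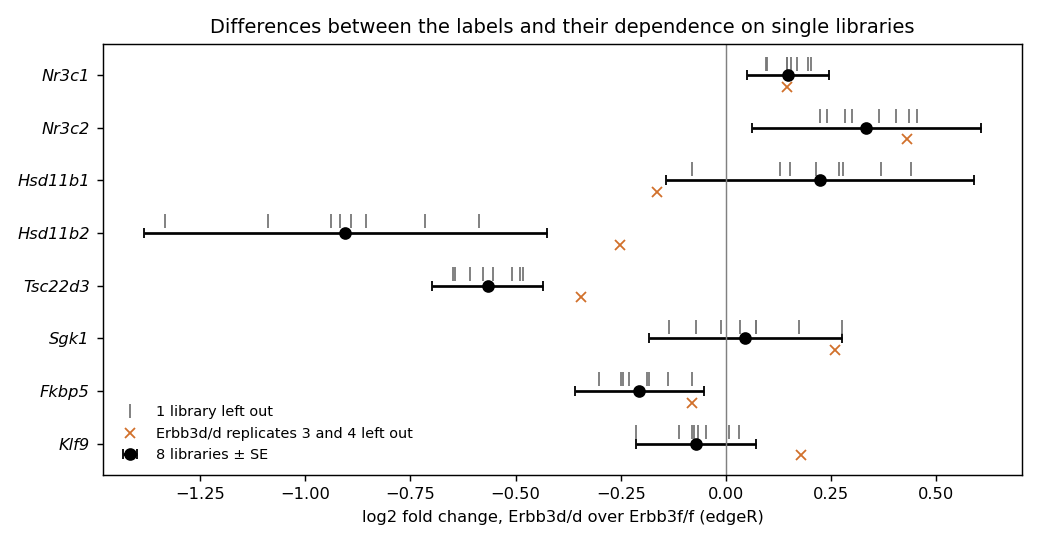
Log2 fold change of each gene, Erbb3d/d over Erbb3f/f, from edgeR. The black point and bar give the fit to 8 libraries and its SE. The grey ticks give the fits that leave out 1 library and the orange cross the fit without Erbb3d/d replicates 3 and 4. Tsc22d3, Hsd11b2 and Fkbp5 stay below 0 in all of these fits, and Nr3c1 and Nr3c2 stay above 0. Sgk1, Klf9 and Hsd11b1 appear on both sides of 0.

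Genes whose profile over the 8 libraries was most like that of Nr3c1 and of Tsc22d3 were listed as a description, by Pearson correlation of log2 CPM over 14597 genes; the libraries share their 2 labels and their cell mixture. For Nr3c1 they were Ccdc69 (r = 0.98), Elf2 (r = 0.97) and Npnt (r = 0.95), and 15 genes had r over 0.9. For Tsc22d3 they were Jak1 (r = 0.99), Gas7 (r = 0.98) and Crp (r = 0.98), and 205 genes had r over 0.9.

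The wider pathway was read from 4 lists of 90 genes that leave out the 8 genes. EdgeR called 0 of the 77 tested list genes at the adjusted threshold of 0.05, as it called 0 of all genes. At an unadjusted p under 0.05 there were 11 higher and 6 lower list genes, beside 6.64% and 4.97% of all genes, and DESeq2 called 2, beside 1.78% of the genes it tested. The median log2 fold change of all genes was -0.01. The genes named below had the smallest p-values of their list in each direction. None of them was called by edgeR with all 8 libraries and genotype alone in the fit. With the replicate number added as a block, edgeR called 52 genes, among them Cdkn1a (adjusted p = 0.0355) and Fam107a (adjusted p = 0.0315).

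Chaperones and coregulators, which hold the receptor ready for hormone and link it to transcription, had log2 fold changes between -0.34 and 0.40. Of 22 genes tested, 6 were higher and 16 lower in Erbb3d/d, with a median log2 fold change of -0.09. At an unadjusted p under 0.05 there were 1 higher and 2 lower, beside 6.64% and 4.97% of all genes. Fkbp4, the co-chaperone that opposes Fkbp5 in the receptor complex, had 287, 280.3, 211 and 279 CPM in Erbb3f/f replicates 1 to 4 and 334, 295, 383 and 383 CPM in Erbb3d/d replicates 1 to 4. Its groups did not overlap, as in 2.56% of all genes with Erbb3d/d higher, and the log2 fold change was 0.40 (SE 0.12; edgeR, adjusted p = 0.305; exact permutation test, p = 0.0286). The other 2 with the smallest p among the higher genes, Ppargc1a and Ep300, had log2 fold changes of 0.35 (SE 0.24) and 0.09 (SE 0.11). The groups overlapped for both. That of Ep300 was -0.028 without Erbb3d/d replicates 3 and 4, so no direction can be given for it. On the lower side, Carm1, Ncoa1 and Ptges3, an arginine methyltransferase coactivator, a steroid receptor coactivator and the HSP90 co-chaperone p23, had log2 fold changes of -0.24, -0.23 and -0.25.

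The list of other glucocorticoid-responsive genes went both ways. Of 38 genes tested, 21 were higher and 17 lower, with a median log2 fold change of 0.07, and 7 higher and 3 lower had an unadjusted p under 0.05, beside 6.64% and 4.97% of all genes. Pdk4, a kinase that restrains pyruvate use, had 7.21, 5.97, 3.38 and 4.75 CPM in Erbb3f/f replicates 1 to 4 and 19.0, 8.75, 10.6 and 20.4 CPM in Erbb3d/d replicates 1 to 4. Its groups did not overlap, as in 2.56% of all genes with Erbb3d/d higher. The log2 fold change was 1.47 (SE 0.33). The adjusted p was 0.203 in edgeR and 0.00371 in DESeq2, which called 1.78% of the genes it tested. Cdkn1a, which encodes the cell cycle inhibitor p21, had 46.4 ± 11.7 CPM with the f/f label against 96.1 ± 31.6 CPM with the d/d label (SD, n = 4 per label; edgeR, adjusted p = 0.281; DESeq2, adjusted p = 0.0111). The groups of Cdkn1a overlapped, with Erbb3d/d replicate 2 (49.5 CPM) inside the Erbb3f/f range of 30.7 to 57.7 CPM. Pdk4 and Cdkn1a were also called in edgeR without that library, where 1.75% of the genes tested were called. Foxo1, a transcription factor of decidualization, had a log2 fold change of 0.32 (SE 0.12).

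On the lower side of the same list, Fam107a had 15.6, 19.3, 7.93 and 2.60 CPM in Erbb3f/f replicates 1 to 4 and 2.36, 3.03, 0.394 and 0.263 CPM in Erbb3d/d replicates 1 to 4. The groups overlapped through Erbb3f/f replicate 4 (log2 fold change -2.96, SE 0.80; edgeR, adjusted p = 0.284). Hif3a had a log2 fold change of -1.60 (SE 0.57), also with overlapping groups. Klf15, a Krüppel-like factor induced by glucocorticoids, had 68.0, 63.4, 42.4 and 50.4 CPM in Erbb3f/f replicates 1 to 4 and 41.8, 49.6, 20.5 and 16.3 CPM in Erbb3d/d replicates 1 to 4 (log2 fold change -0.81, SE 0.34; edgeR, adjusted p = 0.413). Fam107a, Hif3a and Klf15 all had their 2 lowest values of the 8 libraries in Erbb3d/d replicates 3 and 4, as did 11.1% of all genes tested. Without these 2 libraries their log2 fold changes were -2.07, -1.02 and -0.29.

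Mineralocorticoid-related genes, mainly sodium channel and pump subunits and their regulators, were 5 higher and 7 lower of 12 tested, with a median log2 fold change of -0.06. Scnn1b and Scnn1a, subunits of the epithelial sodium channel, had log2 fold changes of -0.47 (SE 0.16) and -0.44 (SE 0.33), and Atp1b1, a sodium pump subunit, had -0.70 (SE 0.34). The groups overlapped for each of these genes. For Atp1b1, Erbb3f/f replicates 1 and 2 had 269 and 293 CPM. Erbb3f/f replicates 3 and 4 had 118 and 124 CPM, within the Erbb3d/d range of 103 to 178 CPM. The value of Scnn1a was -0.80 without Erbb3d/d replicate 2 and 0.013 without Erbb3d/d replicates 3 and 4, so no direction can be given for it. Beside these genes, the summed epithelial markers were higher on average in Erbb3d/d, and their part in these values was not tested. Ndrg2 and Cnksr3 had log2 fold changes of 0.65 and 0.38, with overlapping groups. Ndrg2 was called in edgeR without Erbb3d/d replicate 2 (adjusted p = 0.0415), where 1.75% of the genes tested were called.

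Transcripts of corticosteroid synthesis were few. Of 14 genes on this list, 9 did not pass the filter on low counts. Cyp11b1 and Cyp11b2, the enzymes of the last steps to corticosterone and aldosterone, had 5 and 7 reads in all 8 libraries together, and Serpina6, which encodes the plasma corticosteroid carrier, had 0. Of the 5 tested, 4 were higher and 1 lower, with a median log2 fold change of 0.26. Star, which moves cholesterol into mitochondria, had 17.7 ± 3.88 CPM with the f/f label against 23.4 ± 2.83 CPM with the d/d label (SD, n = 4 per label). The log2 fold change was 0.41 (SE 0.18; edgeR, adjusted p = 0.414). Cyp21a1, Abcb1a and Srd5a1 had log2 fold changes of 1.38, 0.26 and -0.098. Without Erbb3d/d replicates 3 and 4 that of Cyp21a1 was 0.028, and without Erbb3d/d replicate 2 those of Abcb1a and Srd5a1 were 0.053 and -0.018.

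**Figure D5:**
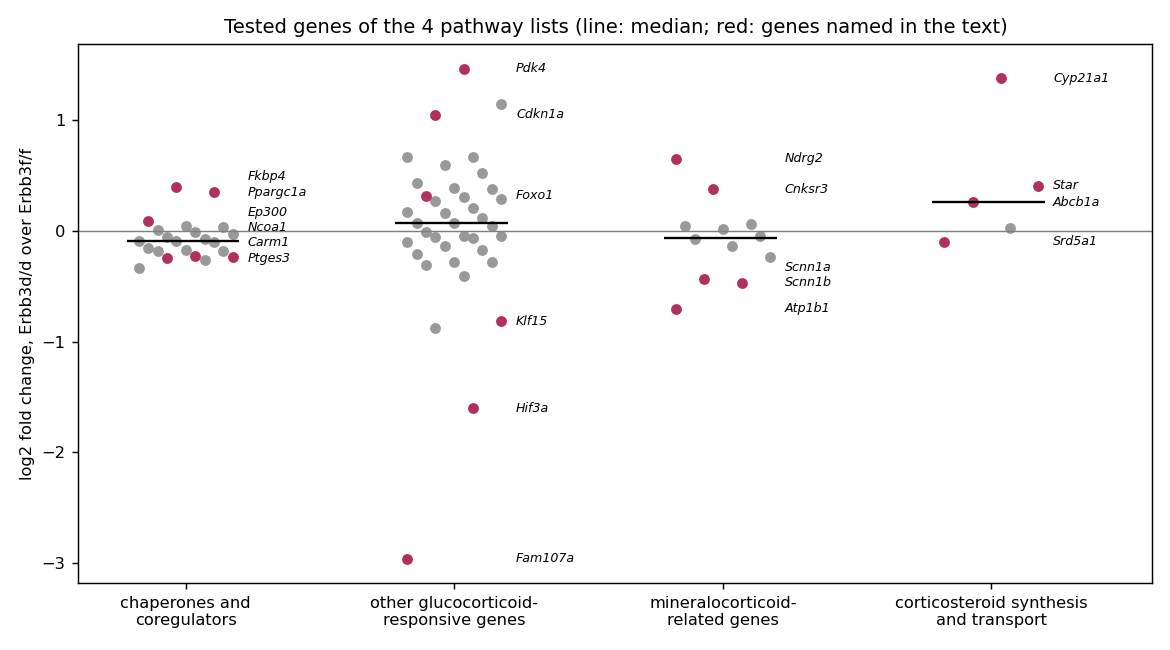
Log2 fold change, Erbb3d/d over Erbb3f/f, of the tested genes of the 4 pathway lists. Each point is 1 gene, red for those named in the text, and each line is the list's median, which lies between -0.09 and 0.26. EdgeR with genotype alone in the fit called none of the genes shown at an adjusted p under 0.05.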

How the data were processed

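Counts of reads per gene symbol were deposited by the authors as 1 table per library, raw and not normalized. The submitters' processing notes name HISAT2, SAMtools, HTSeq and StringTie and the builds mm10 and GRCm38, without roles or versions; the gene annotation and counting options are not given in the sources used here. Per the labels, libraries were poly(A)-selected, non-directional and read as pairs of 150 bp. Lines that name no gene held 70.9% to 73.0% of all entries and were left out. Libraries were grouped by the genotype and replicate number in their titles.

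Counts were tested in R 4.3.3 with edgeR 4.0.16 (filterByExpr, TMM, robust quasi-likelihood test of genotype, Benjamini-Hochberg adjustment over all genes tested, threshold 0.05). The SE is the log2 fold change over the square root of the F statistic. Each gene alone was also put through an exact permutation test (two-sided, 70 assignments, pseudocount 0.5). Both scripts for edgeR and DESeq2 were tested on simulated data. Alternatives were DESeq2 1.42.0, other scalings, no filter, the replicate number as a block and left-out libraries. Positions and lengths came from GENCODE vM21 (GRCm38), where 92.8% of symbols matched 1 gene, and promoters from RefSeq GRCm38.p6. The genes, lists and rule were chosen with earlier results of these data known. Named were Erbb3, the 8 genes, Pgr, Esr1, per list the called genes or else the 3 with the smallest p in each direction, and the 3 genes most like Nr3c1 and Tsc22d3; some genes this rule names are not reported here.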

Additional observations from a re-analysis of the deposited data

How the results depend on the processing

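Over all genes, edgeR with all 8 libraries and no replicate block called 0, and 1695 had an unadjusted p under 0.05. DESeq2 called 270 genes, 1 of the 8 (Tsc22d3) and 2 of the pathway lists (Pdk4 and Cdkn1a). Leaving out 1 library gave 0 to 259 genes, 0 to 1 of the 8 (Tsc22d3) and 0 to 3 of the lists (Pdk4, Cdkn1a and Ndrg2), and each of these calls was made without Erbb3d/d replicate 2. The score of that library on the first principal component, -19.8, lay within the range of the Erbb3f/f libraries. Same-numbered libraries of the 2 labels had correlated deviations, all positive, of 0.22, 0.16, 0.096 and 0.15. Those of differently numbered libraries had both signs and ran from -0.30 to 0.30. Not every library correlated best with its own number: Erbb3f/f replicate 4 did so with Erbb3d/d replicate 3 (0.30). The numbers were therefore not taken as pairs, and whether same-numbered libraries share an origin was not tested. With the replicate block, 52 genes were called, 0 of the 8 and 2 list genes (Cdkn1a and Fam107a); the adjusted p of Tsc22d3 was then 0.0814 and the log2 fold change of Hsd11b2 -1.23. With 1 library left out, the log2 fold change ran from -0.14 to 0.28 for Sgk1, from -0.21 to 0.030 for Klf9 and from -0.081 to 0.44 for Hsd11b1. That of Sgk1 turned to -0.012, -0.072 and -0.14 without Erbb3f/f replicate 3, Erbb3f/f replicate 4 and Erbb3d/d replicate 1. That of Klf9 turned to 0.030 and 0.0078 without Erbb3d/d replicate 3 and replicate 4, and to 0.18 without both. That of Hsd11b1 turned to -0.081 without Erbb3d/d replicate 4 and to -0.16 without Erbb3d/d replicates 3 and 4. Nr3c1, Nr3c2, Tsc22d3, Fkbp5 and Hsd11b2 kept their direction in all 14 alternatives to the fit, and no scaling moved the median of all genes by more than 0.1. The causes were not tested. Depth limits Nr3c2 and Hsd11b1, with 17 to 71 reads a library.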
